A study of Mus musculus with 9 samples.

Results

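Mettl21c, Mettl21e, Mettl21a and Vcpkmt encode 4 related methyltransferases that place methyl groups on lysines of other proteins, and they are described here in mouse tibialis anterior, a fast muscle of the lower leg. All 4 symbols were found among the 14300 protein-coding genes listed in both deposited tables. Eef1akmt3, also called Mettl21b, was not matched there under either name, so the family here means these 4 genes. Mettl21c was picked because its transcript follows androgen in these same libraries, so its values are given as a description without a test. The other 3 genes were taken in as its relatives.

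Polyadenylated RNA was sequenced with directional libraries from male C57BL/6J mice, 3 libraries for each of 3 groups. The control group is called control in the labels and sham in the tables, and whether it had a mock operation is not given in the labels. The ORX group had the testes removed, and the ORX+DHT group was orchiectomised and received dihydrotestosterone, a potent agonist of the androgen receptor. All groups were taken 4 weeks after treatment, and all shared strain, sex and muscle. The dose and route of dihydrotestosterone and the age of the mice are not given in the labels.

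Lysine methyltransferases of this family have the seven-beta-strand fold and take the methyl group from S-adenosylmethionine. METTL21A is known to methylate Hsp70 chaperones, and VCPKMT (also called METTL21D) methylates VCP, a hexameric ATPase that extracts ubiquitinated proteins for degradation. METTL21C and METTL21E are enzymes found mainly in skeletal muscle, and Hsp70-type chaperones, VCP and alanyl-tRNA synthetase have been reported as their targets. Androgens act on muscle through the androgen receptor, a transcription factor present in muscle fibres and in other cells of the tissue.

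In the GENCODE M21 models of the mouse genome (GRCm38), Mettl21c (ENSMUSG00000047343) lies on the minus strand at chr1:44009408-44020034 and codes over 744 bases. Mettl21e (ENSMUSG00000046828) is the closest to it in coding sequence and lies on the same strand at chr1:44204070-44218961 with 732 coding bases. Mettl21a (ENSMUSG00000025956) is further along the same chromosome at chr1:64606473-64617242, and Vcpkmt (ENSMUSG00000049882) is at chr12:69577628-69583028, both on the minus strand. The coding transcript has 5 exons in Mettl21c and Mettl21e, 3 in Mettl21a and 6 in Vcpkmt. None of the 4 shares exon bases with another annotated gene.

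The coding stretch below is exonic and aligns in all 4 genes. It is shown because it holds the longest identical run of the pair Mettl21c and Mettl21e, the 2 genes whose values are set against each other, and shows how far apart even that pair is. Capitals mark the 21 bases that are identical in all 4 genes. Sequences read 5′ to 3′ on the coding strand, from coding base 502 to 572 in Mettl21c, 481 to 551 in Mettl21e, 399 to 470 in Mettl21a and 406 to 472 in Vcpkmt.
Mettl21c: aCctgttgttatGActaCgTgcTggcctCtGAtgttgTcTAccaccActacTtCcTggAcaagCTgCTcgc
Mettl21e: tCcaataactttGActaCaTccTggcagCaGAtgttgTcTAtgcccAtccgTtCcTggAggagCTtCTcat
Mettl21a: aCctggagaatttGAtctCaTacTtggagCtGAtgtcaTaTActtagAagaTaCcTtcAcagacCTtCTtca
Vcpkmt: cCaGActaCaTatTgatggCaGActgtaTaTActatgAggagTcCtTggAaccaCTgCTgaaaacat

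Within this stretch, 47 of 71 aligned bases of Mettl21e equal Mettl21c, against 40 of 70 in Mettl21a and 33 of 62 in Vcpkmt. Over the whole coding sequence Mettl21c and Mettl21e were identical at 64.5% of 699 aligned bases. Mettl21c matched Mettl21a at 60.2% of 606 aligned bases and Vcpkmt at 62.5% of 606. The other 3 pairs matched at 61.4% (Mettl21e with Mettl21a), 61.4% (Mettl21e with Vcpkmt) and 62.9% (Mettl21a with Vcpkmt). No pair of coding transcripts shared a run of more than 12 identical bases.

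Each library held 1340209 to 1682235 reads over the listed genes, so a gene at a normalised count near 1 rests on about 1 read. Over 8631 genes with a mean normalised count of at least 10, 30.7% of the variance lay along the first principal component. Control library 1 stood at -47.2 on that component and the other 8 libraries between 0.716 and 10.6, so the members' differences from control are given with and without it. Other control values include it, and a value without it follows for some of them. It also had the highest Mettl21c, Mettl21e and Vcpkmt of all 9 libraries. The labels call the libraries biological replicates and do not tie them to named animals, so p-values measure the spread between these libraries.

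Mettl21c was high in control muscle, low after orchiectomy, and at the control level in orchiectomised mice given dihydrotestosterone. Control libraries 1, 2 and 3 had normalised counts of 313, 182 and 119, from 251, 165 and 120 reads. ORX libraries had 38.3, 42.6 and 33.1, from 39, 50 and 40 reads. ORX+DHT libraries had 179, 243 and 224, from 177, 251 and 227 reads. Every ORX library lay below every library of both other groups, and the ORX+DHT values lay within the range of the control values.

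Its mean ± SD over 3 libraries was 205 ± 99.1 for control, 38.0 ± 4.78 for ORX and 215 ± 32.6 for ORX+DHT. ORX muscle thus held 18.5% of the control level, and ORX+DHT muscle 5.67 times the ORX level and 105% of control. On the scale of log2(normalised count + 1), used for all differences here, ORX minus control was -2.30, ORX+DHT minus ORX was 2.47 and ORX+DHT minus control was 0.17. The first 2 of these share the ORX libraries and are not independent of each other.

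Control libraries differed most among themselves. The coefficient of variation of Mettl21c was 48.3% there, 12.6% among ORX and 15.1% among ORX+DHT libraries. Control library 1 had a 95% Poisson interval of 276 to 355 and control library 3 one of 98.8 to 143, so the counting error of their reads does not cover the gap between them. Without control library 1 the control mean was 151, ORX minus control was -1.94 and ORX+DHT minus control was 0.53, with ORX+DHT at 143% of control. All such intervals reflect the sampling of reads alone, and no molecular identifiers show which reads were copies of 1 molecule.

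Among all genes tested, the Mettl21c difference was number 2 from the lowest of 8631 for ORX minus control, with the lowest rank given to the deepest fall. It was number 4 from the highest of 8770 for ORX+DHT minus ORX. The median over all genes tested was -0.0077 and 0.0062. Mettl21c was selected for this pattern, so these ranks only describe how the selection stands in the tables.

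**Figure D1:**
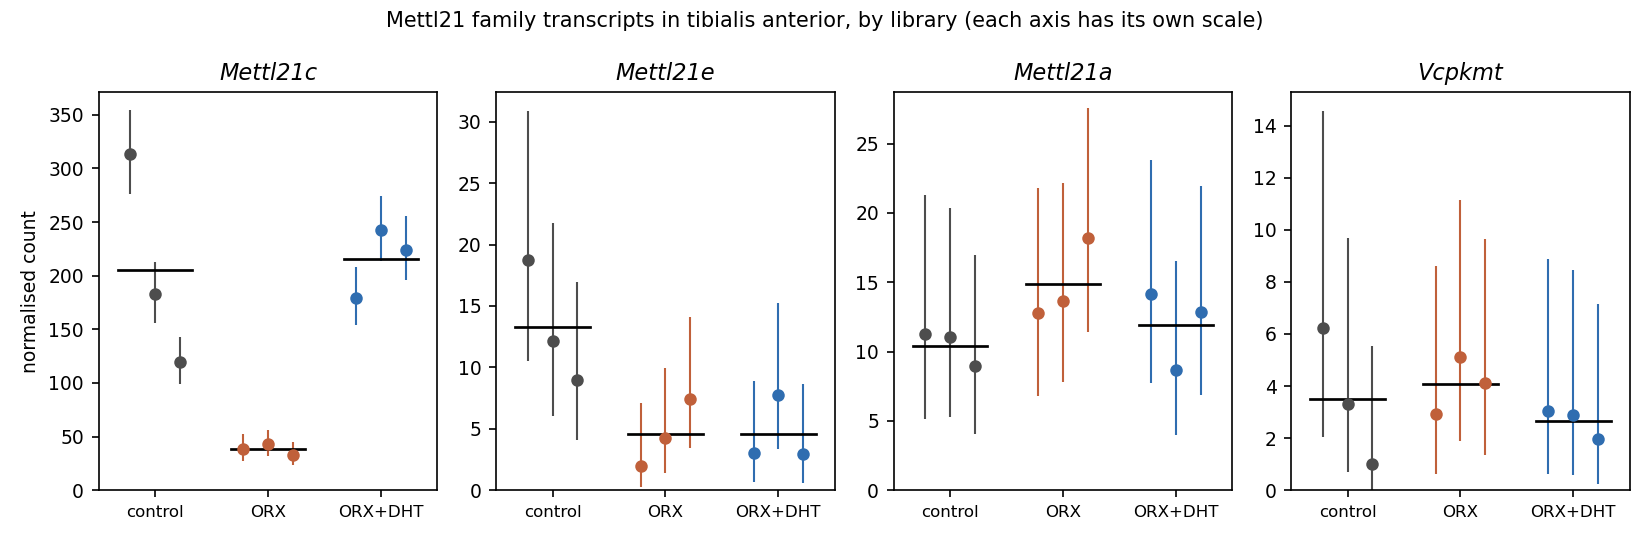
Normalised counts of the 4 family genes in each library (points, with 95% Poisson intervals on the reads as bars, and the group mean as a black line) in control, ORX and ORX+DHT muscle, each panel with its own vertical scale from 0. Mettl21c lies at 33.1 to 42.6 in ORX and at 119 to 313 elsewhere, while Mettl21e stays at 1.96 to 7.73 in both ORX and ORX+DHT.

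Mettl21e, the closest relative in sequence, was scarce, and its ORX+DHT values stayed near those of ORX. Control libraries had 18.7, 12.2 and 8.94 (15, 11 and 9 reads). ORX libraries had 1.96, 4.26 and 7.44 (2, 5 and 9 reads). ORX+DHT libraries had 3.04, 7.73 and 2.96 (3, 8 and 3 reads). Each control library was above every ORX and every ORX+DHT library, while ORX and ORX+DHT lay within the same range.

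Mettl21e had a mean of 13.3 ± 4.99 in control libraries, against 4.56 ± 2.75 after orchiectomy and 4.58 ± 2.73 with dihydrotestosterone added (SD, n = 3 each). The difference was -1.43 for ORX minus control and -1.40 for ORX+DHT minus control. An exact two-sided permutation test gave p = 0.1 for both, the smallest that 3 libraries against 3 allow. Mettl21e fell below the minimum mean of 10, so its row comes from the limma fit without that filter, with an adjusted p of 0.562 for ORX minus control (unadjusted 0.00758, SE 0.47) and 0.807 for ORX+DHT minus control (unadjusted 0.00822, SE 0.45). The edgeR quasi-likelihood test on the recovered reads of all listed genes gave adjusted p-values of 0.162 and 0.701. The lower values of Mettl21e outside the control group therefore did not pass the threshold of 0.05 in either comparison.

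For ORX+DHT minus ORX the difference of Mettl21e was 0.03 (SE 0.50), with a limma adjusted p of 0.988 and an exact permutation p of 0.9. With 2 to 9 reads a library, the interval of 1 library is wide: 2 reads in ORX library 1 give a 95% Poisson interval of 0.238 to 7.09 on the normalised scale. Without control library 1 the differences from control were -1.17 for ORX and -1.14 for ORX+DHT, again with no overlap.

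Mettl21a, the Hsp70 methyltransferase, had its lowest mean in the control group. Control libraries had 11.2, 11.1 and 8.94 (9, 10 and 9 reads), ORX libraries 12.8, 13.6 and 18.2 (13, 16 and 22 reads), and ORX+DHT libraries 14.2, 8.70 and 12.8 (14, 9 and 13 reads). The ORX libraries all lay above the control libraries, and the ORX+DHT libraries overlapped both groups. Means were 10.4 ± 1.28, 14.9 ± 2.92 and 11.9 ± 2.86 (SD, n = 3 each). ORX minus control was 0.47, opposite in sign to Mettl21c and Mettl21e, with a limma adjusted p of 0.754 (unadjusted 0.145) and an exact permutation p of 0.1, the smallest possible.

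ORX+DHT minus ORX was -0.31 for Mettl21a (limma adjusted p = 0.713) and ORX+DHT minus control was 0.16 (limma adjusted p = 0.913). Exact permutation tests gave 0.5 and 0.6. Mettl21a thus passed no test. Without control library 1, ORX minus control was 0.52.

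Vcpkmt, the VCP methyltransferase, was near the limit of detection. Control libraries had 6.24, 3.32 and 0.993 (5, 3 and 1 reads), ORX libraries 2.94, 5.12 and 4.14 (3, 6 and 5 reads), and ORX+DHT libraries 3.04, 2.90 and 1.98 (3, 3 and 2 reads). All 3 groups overlapped. Means were 3.52 ± 2.63, 4.07 ± 1.09 and 2.64 ± 0.578 (SD, n = 3 each). The differences were 0.33, -0.47 and -0.14 for ORX minus control, ORX+DHT minus ORX and ORX+DHT minus control. Exact permutation p-values were 0.7, 0.2 and 0.8, and limma adjusted p-values without the filter 0.888, 0.790 and 0.969. Without control library 1 the ORX minus control difference was 0.76, again with overlapping groups.

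Counted over the family, ORX and control did not overlap for 3 of 4 members, while 12.1% of all 14596 listed genes did not overlap in that comparison. Mettl21c and Mettl21e were lower in ORX, as were 6.22% of listed genes without overlap, and Mettl21a was higher, as were 5.89%. Of the 3 relatives, none passed an adjusted p of 0.05 there, where limma called 0.0579% of 8631 genes with the filter and 0.11% of 14596 without it. Mettl21e alone was under an unadjusted 0.05, and edgeR on all listed genes called none of the 3. In ORX+DHT minus ORX only Mettl21c did not overlap, against 15.4% of all listed genes (7.93% higher). There limma called 4.08% of 8770 genes with the filter and 2.52% without it, and none of the 3 relatives under limma or edgeR, with none under an unadjusted 0.05. Between ORX+DHT and control only Mettl21e did not overlap, against 11.4% of genes (5.87% lower). There limma called 0.0349% of 8595 genes (0.0217% without the filter) and none of the 3 relatives. No relative was called by edgeR in that comparison either, and Mettl21e alone was under an unadjusted 0.05. Mettl21c was chosen on the contrasts with ORX, so its place in these counts carries no evidence.

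Compared per length, Mettl21c was the most abundant of the 4 transcripts in every group. Per kilobase of merged exons, mean normalised counts of Mettl21c were 47.7, 8.84 and 50.1 in control, ORX and ORX+DHT. On the same scale Mettl21e had 3.35, 1.15 and 1.16, Mettl21a 3.46, 4.95 and 3.96, and Vcpkmt 3.43, 3.96 and 2.57. In control muscle the 3 relatives did not differ beyond their spread (SD 1.26 for Mettl21e, 0.425 for Mettl21a and 2.56 for Vcpkmt). In ORX, Mettl21e lay below both others in every library, and Mettl21a and Vcpkmt overlapped. In ORX+DHT, Mettl21e again lay below both others within every library. Its highest value there (1.95) was just above the lowest of Vcpkmt (1.92). Leaving out control library 1, control means per kilobase of merged exons were 35.1 for Mettl21c, 2.66 for Mettl21e, 3.33 for Mettl21a and 2.10 for Vcpkmt. The merged exons of Mettl21c (4300 bases) are much longer than its coding transcript (1086 bases), and per kilobase of coding transcript its means were 189, 35.0 and 198, with the order of Mettl21c above the relatives kept.

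The make-up of the family's reads followed Mettl21c. It supplied 89.6%, 87.3% and 86.3% of the reads of the 4 genes in control libraries, a mean of 87.8% ± 1.70 (SD, n = 3), or 86.8% without library 1. In ORX libraries its share was 68.4%, 64.9% and 52.6%, a mean of 62.0% ± 8.29, and in ORX+DHT libraries 89.8%, 92.6% and 92.7%, a mean of 91.7% ± 1.61. The highest ORX share had a 95% Wilson interval of 55.5% to 79.0% on 57 reads, and the lowest share outside ORX one of 79.6% to 91.1% on 139 reads. These shares are not corrected for length and move with Mettl21c by construction.

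The ratio of Mettl21c to Mettl21e reads was highest in the ORX+DHT libraries, though on few Mettl21e reads. It was 16.7, 15.0 and 13.3 in control libraries, 19.5, 10 and 4.44 in ORX libraries, and 59.0, 31.4 and 75.7 in ORX+DHT libraries. Each ORX+DHT ratio was above all 6 others, while ORX and control overlapped. The ratios that rest on 2 or 3 Mettl21e reads had wide 95% exact binomial intervals, 5.05 to 167 in ORX library 1, 19.9 to 289 in ORX+DHT library 1 and 25.6 to 370 in ORX+DHT library 3, which overlap those of the control libraries (6.79 to 30.6 over all 3). The ratio of Mettl21c to Mettl21a reads was 27.9, 16.5 and 13.3 in control libraries, 3.0, 3.13 and 1.82 after orchiectomy, and 12.6, 27.9 and 17.5 in ORX+DHT, with ORX below all others. These ratios contain Mettl21c and are given without a test.

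**Figure D2:**
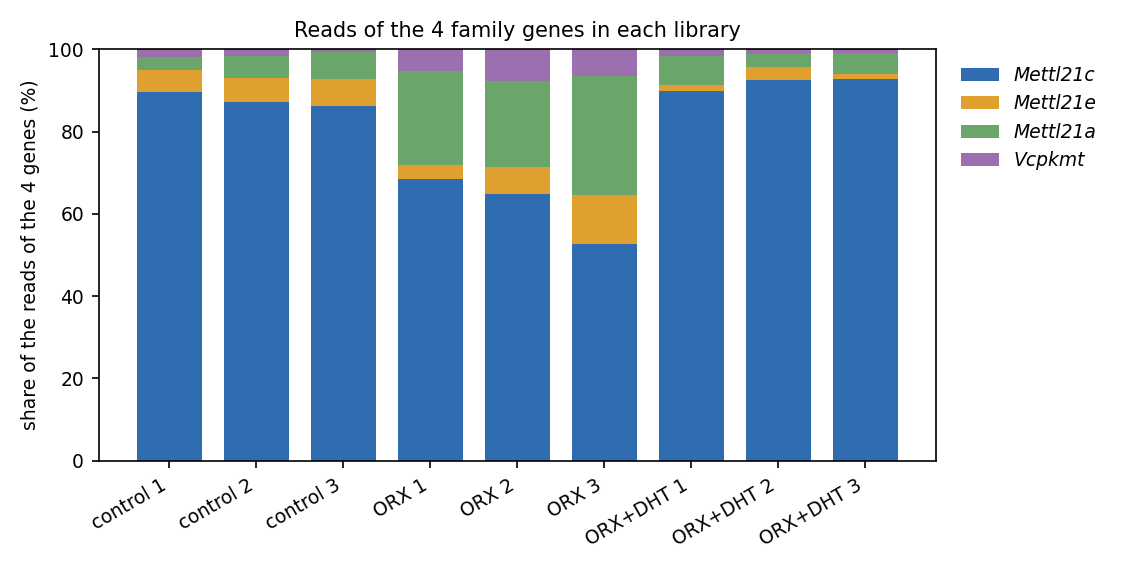
Share of the summed reads of the 4 genes that came from each gene (stacked bars, percent) in each of the 9 libraries. Mettl21c takes 86.3% to 92.7% in control and ORX+DHT libraries and 52.6% to 68.4% in ORX libraries.

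Mettl21c and Mettl21e lie 184035 bases apart on the same strand, with 5 annotated protein-coding genes between them. Of these, Tex30, Poglut2 (an O-glucosyltransferase), Bivm and Ercc5 (a nuclease of nucleotide excision repair) are listed in both tables. For ORX minus control the differences (± SE from the libraries' spread) were -2.30 ± 0.41 for Mettl21c, -1.39 ± 0.70 for Tex30, -0.48 ± 0.38 for Poglut2, 0.24 ± 0.30 for Bivm, 0.24 ± 0.16 for Ercc5 and -1.43 ± 0.52 for Mettl21e. Tex30 rests on 32 reads in all 9 libraries and its groups overlapped. For ORX+DHT minus ORX the differences were 2.47 ± 0.17 for Mettl21c and 0.03 ± 0.58 for Mettl21e, and between 0.63 ± 0.46 (Tex30) and -0.15 ± 0.19 (Bivm) for the genes between. None of the 4 genes between them had groups that did not overlap in these comparisons.

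**Figure D3:**
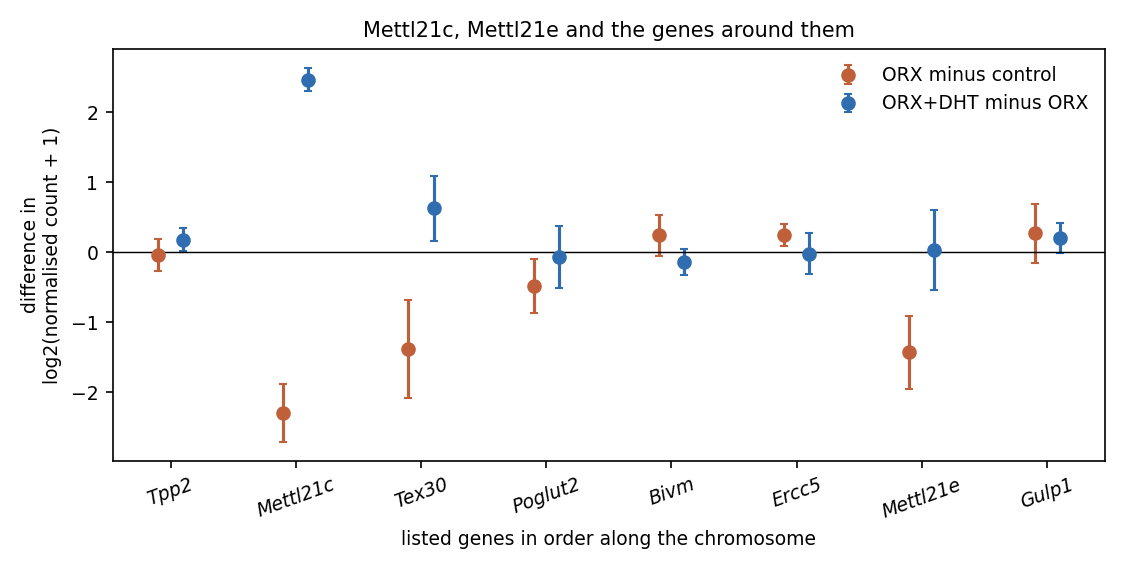
Differences in log2(normalised count + 1), with SE bars, for Mettl21c, Mettl21e and the listed genes between and beside them in chromosomal order, for ORX minus control and ORX+DHT minus ORX. Mettl21c stands at -2.30 and 2.47 and Tex30 beside it at -1.39 and 0.63, on 32 reads and with overlapping groups, while Tpp2, Poglut2, Bivm, Ercc5 and Gulp1 lie between -0.48 and 0.27 in both.

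Across the 3 listed genes on each side of every member (24 positions, 22 genes), limma tested 17 genes for ORX minus control and called none, with 2 under an unadjusted 0.05 and none called by edgeR or DESeq2. Of 15 tested for ORX+DHT minus ORX, 1 was called, against 4.08% of all genes tested, with 2 under an unadjusted 0.05, 2 called by edgeR and 1 by DESeq2. That was Col5a2, a fibrillar collagen gene and the third past Mettl21e, which fell by 0.82 (limma adjusted p = 0.000881), from a mean of 152 ± 25.5 to 85.1 ± 7.74 (SD, n = 3 each). In the 9-library fit its limma adjusted p was 0.199. The other gene that edgeR called was its neighbour Col3a1, also a fibrillar collagen (edgeR adjusted p = 0.0419, limma 0.0597). The direct neighbours of Mettl21a, Creb1 (a cAMP-responsive transcription factor) and Ccnyl1, and those of Vcpkmt, Arf6 (a small GTPase) and Sos2 (a Ras exchange factor), passed in none of the 3 comparisons. Between ORX+DHT and control 16 were tested and none called, with 2 under an unadjusted 0.05 and none by edgeR or DESeq2.

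Among 3794 genes with a mean of at least 50, those whose levels ran closest to Mettl21c over the 9 libraries were Smox, Chd7, Slc16a3, Kcng4, Bhlhe41, Mgst3, Amd1 and Alas1. Pearson's r was 0.989 for Smox, which oxidises spermine, and 0.988 for Chd7, a chromatin remodeller. It was 0.978 for Slc16a3, a lactate transporter, and 0.965 for both Kcng4, a potassium channel subunit, and Bhlhe41, a transcriptional repressor of the clock. Mgst3, a microsomal glutathione transferase, had 0.964, Amd1, which decarboxylates S-adenosylmethionine for polyamine synthesis, 0.961, and Alas1, the first enzyme of haem synthesis, 0.960. The 9 libraries share their grouping, so these values mostly describe the likeness of 3 group levels.

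Without control library 1 the r values of these 8 genes were 0.953 (Alas1) to 0.992 (Kcng4), and Spearman's rho over 9 libraries was 0.817 to 0.967. Control library 1 was the highest control library in 7 of the 8, as in Mettl21c. The size of the swing differed among them. Mean normalised counts in control, ORX and ORX+DHT were 1139, 281 and 1105 for Smox, 662, 173 and 928 for Amd1, and 72.4, 44.4 and 71.2 for Chd7. Slc16a3 had 892, 505 and 988, Kcng4 203, 102 and 249, and Bhlhe41 119, 54.3 and 115. The control means of Smox and Amd1 were 931 and 631 without library 1. Amd1 has near-identical copies elsewhere in the genome, and how their reads were counted is not given in the sources used here.

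**Figure D4:**
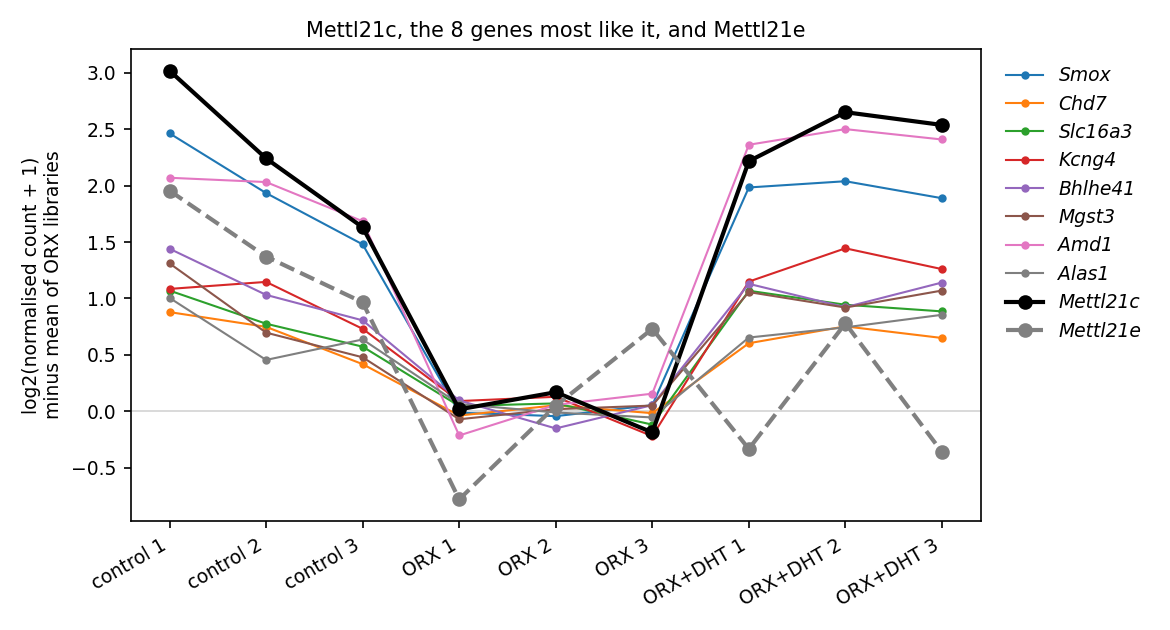
Level of Mettl21c (black), its 8 most similar genes (coloured) and Mettl21e (dashed) in each library, as log2(normalised count + 1) minus the mean of the ORX libraries. Lines only guide the eye across unordered libraries. Mettl21c, Smox and Amd1 have the deepest ORX dips. The Mettl21e line, on 2 to 15 reads a library, lies near its ORX level in ORX+DHT, and its differences passed no adjusted test.

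The relatives did not run with Mettl21c in the same way. Pearson's r to Mettl21c over the 9 libraries was 0.43 for Mettl21e, -0.59 for Mettl21a and -0.12 for Vcpkmt. Mettl21e ran closest to Abhd11 (r = 0.973), a mitochondrial hydrolase, then Aifm1 (0.931), Gyg (0.930), the glycogenin that primes glycogen, and Marchf2 (0.919), a ubiquitin ligase. Abhd11 stood at 71.5, 48.0 and 51.3 in control, ORX and ORX+DHT. Without control library 1 the r to Mettl21e was 0.971 for Abhd11, 0.887 for Aifm1, 0.889 for Gyg and 0.871 for Marchf2. These 4 genes were picked as the highest of 3795 over 9 libraries, and how high a top r would be for unrelated genes was not tested. With 2 to 15 reads of Mettl21e a library, this likeness rests on sparse counts.

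The list of other seven-beta-strand lysine methyltransferases held 12 genes, of which 10 were matched and 6, 5 and 6 tested in the 3 comparisons (ORX minus control, ORX+DHT minus ORX, ORX+DHT minus control, in this order throughout). None was called by limma, edgeR or DESeq2, with 0, 0 and 1 under an unadjusted 0.05. Median differences were -0.11, -0.25 and -0.37, against -0.0077, 0.0062 and -0.0051 over all genes tested. The most abundant were Mettl22, at 115, 96.0 and 93.5 in control, ORX and ORX+DHT, and Mettl23. The control libraries of Mettl23 had 102, 44.2 and 34.8, a mean of 60.5 ± 36.6 (SD, n = 3) that is 39.5 without library 1, against 39.0 in ORX and 37.9 in ORX+DHT.

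Transcripts of the reported substrates did not pass the test either. Of 8 genes, 6 were tested in each comparison and none was called by limma, edgeR or DESeq2, with 0, 1 and 0 under an unadjusted 0.05 and medians of -0.21, 0.11 and -0.02. Hspa8, the constitutive Hsc70 chaperone, stood at 958 ± 200, 781 ± 58.8 and 879 ± 71.4, and Vcp at 378 ± 8.75, 385 ± 13.3 and 382 ± 28.4 (SD, n = 3 each) in control, ORX and ORX+DHT. Protein amounts and methylation were not measured. The list of VCP cofactors, 14 genes with 12, 13 and 13 tested, had none called by limma, edgeR or DESeq2 at the minimum mean of 10, 1, 2 and 0 under an unadjusted 0.05, and medians of -0.0031, 0.09 and 0.08. Its most abundant members were Ubxn1 at 317, 192 and 228 (control 238 without library 1) and Ubxn2a at 224, 255 and 246 (control 257 without library 1). Ubxn1 was called lower in ORX by edgeR on all listed genes (adjusted p = 0.0470), the fit also used for Mettl21e and Vcpkmt, while its limma adjusted p was 0.669.

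The list of genes that make, use or recycle the methyl donor held 2 that were called in a comparison. Of 13 genes, 12 were matched and 10 tested, with medians of -0.07, 0.20 and 0.15 against -0.0077, 0.0062 and -0.0051 over all genes. For ORX minus control 1 of 10 was called, against 0.0579% of all genes tested, and for ORX+DHT minus ORX 2 of 10, against 4.08%. The list was chosen with earlier results of these data known, so these counts are no result about the list. Amd1 alone fell after orchiectomy, by 1.93 on the log2 scale (SE 0.16, limma adjusted p = 0.000796), and it rose by 2.42 with dihydrotestosterone (SE 0.10, limma adjusted p = 5.94e-11). Amd1 consumes S-adenosylmethionine in polyamine synthesis and does not produce it. Mat2a, the enzyme that makes S-adenosylmethionine outside the liver, had group means of 385 ± 13.1, 298 ± 10.2 and 434 ± 61.0 (SD, n = 3 each; control, ORX, ORX+DHT). It rose by 0.53 with dihydrotestosterone (SE 0.10, limma adjusted p = 0.00462, and 0.0555 with all 9 libraries in 1 fit), and its ORX minus control difference of -0.37 did not pass (limma adjusted p = 0.669). None of the list was called for ORX+DHT minus control by limma, edgeR or DESeq2, with 1 under an unadjusted 0.05, but leaving out control library 1 limma called Amd1 there (0.57, adjusted p = 0.0118).

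Of 11 other protein methyltransferases, none was called for ORX minus control, with 1 under an unadjusted 0.05, and none for ORX+DHT minus control, with 0 (edgeR and DESeq2 called none). The medians were -0.06, -0.04 and 0.08. With dihydrotestosterone added to ORX, 1 of 11 was called and 2 were under an unadjusted 0.05, against 4.08% of all genes called, which for 11 genes is no result about the list. Smyd1 was the other (limma adjusted p = 0.0745), and it was called at a minimum mean of 50 (0.0487) and with the replicate block (0.0137). Smyd2, a lysine methyltransferase of the SMYD family present in muscle, rose by 0.64 (SE 0.10, limma adjusted p = 0.000421). Its means were 171 ± 10.4 without and 267 ± 4.42 with it, against 220 ± 28.9 in control (SD, n = 3 each). The most abundant were Smyd1, a muscle-restricted methyltransferase, at 1111, 1031 and 1229, and Setd7 at 642, 728 and 702. Without library 1 the control mean of Setd7 was 754, above that of ORX.

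Markers of other cell types and fibre types were set beside Mettl21c, because in bulk tissue fewer cells of a type and less RNA per cell cannot be told apart. Summed over 5 of 5 detected fibroblast markers (none at 0), the level was 1352 to 2729 in control, 2876 to 3841 after orchiectomy and 1700 to 2388 with dihydrotestosterone, higher in ORX where Mettl21c was low. The sum is carried by Col1a1 and Col3a1, with means of 1682 and 1222 in ORX. Col1a1 and Lum of that list fell in ORX+DHT minus ORX, by 1.18 and 1.79 on the log2 scale (limma adjusted p = 2.89e-06 and 4.81e-06), while Dcn (-0.05) and Pdgfra (0.06) did not pass, nor did Pdgfra in ORX minus control (-0.22). The 4 Schwann cell markers summed to 74.5 to 80.7, 112 to 114 and 75 to 98.8, with S100b and Sox10 at 0 in some libraries and none called. The 8 fast fibre markers, of which Tnnc2 was nearly absent (means of 1.86, 3.87 and 2.98), gave sums of 204598 to 244179, 171765 to 182548 and 176404 to 190896 for the 3 groups in the same order, with Myh1 and Tnni2 rising in ORX+DHT minus ORX. The other 5 tested did not pass, among them Pvalb (-0.28), Actn3 (-0.16) and Myh4 (-0.08) with negative values. The 7 slow fibre markers, with Tnni1 at 0 in some library, summed to 200 to 326, 271 to 311 and 155 to 232. This sum is carried by Myl3 (means of 170, 151 and 89.4) and Atp2a2 (78.1, 94.7 and 88.6). Myl3 fell by 0.75 in ORX+DHT minus ORX (limma adjusted p = 0.0166). Of the 3 slow fibre markers tested there, Tnnt1 (-0.50) and Atp2a2 (-0.11) did not pass. The part of these differences in the Mettl21c result was not tested.

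The sums of the satellite cell, endothelial, macrophage and red blood cell lists overlapped between ORX and both other groups, with and without control library 1, and none of their genes was called by limma, edgeR or DESeq2. Satellite cell markers (4 genes, Myf5 and Calcr at 0 in some libraries) gave sums of 33.8 to 53.7 for control, 35.8 to 49.6 for ORX and 39.5 to 53.2 for ORX+DHT libraries. Endothelial markers (4 genes) summed to 549 to 754, 619 to 768 and 742 to 837. Macrophage markers (5 genes) summed to 28.7 to 43.7, 40.9 to 61.8 and 40.6 to 48.4, and red blood cell markers (3 genes) to 116 to 176, 64.8 to 193 and 124 to 168. The 4 adipocyte markers, each at 0 in some library, summed to 0 to 6.24, 8.83 to 20.7 and 4.05 to 24.7, with ORX above control and no gene high enough to be tested. Of these markers, Cidec went the other way, with means of 2.35 in control and 1.31 in ORX.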

How the data were processed

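Polyadenylated RNA of 9 tibialis anterior libraries was measured, 3 each from control, ORX and ORX+DHT mice. The authors deposited normalised counts, a signal in which a library's reads per gene are divided by a factor of that library, in a table of control with ORX libraries (14596 genes) and a table of ORX with ORX+DHT libraries (14675 genes). Per the submitters' processing notes, Trim Galore 0.6.7, HISAT2 2.2.1, featureCounts 2.0.1, DESeq2 1.36.0 and build GRCm38 were used. The annotation, and whether counting used the strand, are not given in the sources used here. Sham columns were matched to control samples by replicate number, and 0 columns were left unmapped.

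In every column 100% of values lay within 0.01 read of a whole multiple of 1 step, and reads were recovered by division. In control library 3 the step was close to 1, so rounding could not be told apart from it. Means are on a joint scale, with the 14300 shared genes of all 9 libraries rescaled by median-of-ratios factors. The first 2 comparisons were fitted within their own table and ORX+DHT minus control on the joint scale. Each used limma 3.58.1 in R 4.3.3 (eBayes with trend) after adding 1 and taking log2. Genes needed a mean of at least 10, and calls an adjusted p (Benjamini-Hochberg) under 0.05. A fold on this scale understates changes of low genes.

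Mettl21e and Vcpkmt missed the filter and are given from the fit without it, from edgeR 4.0.16 on the reads of all listed genes (added after the data were seen) and from exact two-sided permutation tests of log2 values (scipy 1.17.1). DESeq2 1.42.0 was an alternative. Others were pseudocounts of 0.1 and 10, a minimum mean of 50, TMM and quantile scaling, 9 libraries in 1 fit, a replicate block and leaving out each library. Only the limma fit was tried on simulated data, whose changed genes all had higher means than Mettl21e and Vcpkmt.

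The members and lists were chosen with earlier results of these data known. Named genes are the members, called genes and the 2 most abundant of each functional list, the 3 listed neighbours on each side (those with results), and the 8 and 4 genes with the highest r to Mettl21c and Mettl21e among genes with a mean of at least 50. Marker lists are given by sums and called genes, with other markers named where they limit the reading of a sum or call. Gene models and coding sequences come from GENCODE M21, which holds 14293 of the 14300 gene IDs, aligned with Biopython 1.88.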

Additional observations from a re-analysis of the deposited data

How the results depend on the processing

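Few reads limit the relatives: Vcpkmt had 1 to 6 a library, and a minimum mean of 50 gave no value for Mettl21e, Mettl21a or Vcpkmt. No result changed sign while called, and Mettl21c kept its direction under all 17 alternatives for ORX minus control (-2.63 to -1.94) and for ORX+DHT minus ORX (2.24 to 2.59), where a pseudocount of 10 gave 2.24. The same pseudocount gave -0.67 for Mettl21e in both comparisons with control and -0.16 for Vcpkmt in ORX+DHT minus ORX, by construction of the scale. Mettl21e and Vcpkmt missed the filter in most alternatives, which gave them a difference at most and no test. Among the adjusted p-values that Mettl21e, Mettl21a and Vcpkmt did have, the lowest was 0.162 (Mettl21e, ORX minus control, edgeR on all listed genes).

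Counts of called genes moved more. For ORX minus control (5 genes) they were 16 without a filter, 23 with all 9 libraries in 1 fit, 28 with DESeq2 and 110 with edgeR on all listed genes. Leaving out a library gave 1 to 51 (51 without control library 1, 21 without control library 3, 1 without ORX library 1 or 2, and 2 without ORX library 3). For ORX+DHT minus ORX (358 genes) they were 123, 224 and 558 with 9 libraries in 1 fit, DESeq2 and edgeR on all listed genes, and 223 to 350 without 1 library (223 without ORX+DHT library 1). For ORX+DHT minus control (3 genes) they were 6 with quantile normalisation, 11 with 9 libraries, 13 with DESeq2 and 8 with edgeR on all listed genes. Leaving out a library gave 0 to 66 (66 without control library 1, 1 without control library 3 or ORX+DHT library 1, 0 without ORX+DHT library 3). The cause of these shifts was not tested, and a library left out also leaves fewer samples.

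Without 1 library, Mettl21c ranged from -2.63 to -1.94, 2.38 to 2.59 and -0.16 to 0.53 in the 3 comparisons, in the order ORX minus control, ORX+DHT minus ORX, ORX+DHT minus control. Mettl21e ranged from -1.80 to -1.04, -0.36 to 0.40 and -1.78 to -1.14, Mettl21a from 0.32 to 0.56, -0.44 to -0.11 and 0.03 to 0.35, and Vcpkmt from -0.17 to 0.76, -0.64 to -0.32 and -0.63 to 0.30.

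The replicate numbers were not taken to pair the samples, since not every same-number pair of libraries had a correlation over 0.1 in its deviations from the group means. Between ORX and ORX+DHT these correlations were 0.0611, 0.0627 and 0.151, and all 6 libraries matched best with their own number, a hint from the data and not from the design. Between control and ORX they were -0.165 to 0.06, with 1 of 6 libraries best with its own number, and between control and ORX+DHT -0.0921 to -0.00063, with 0 of 6. With the replicate block, 5, 571 and 3 genes were called, in the order above. The block left the log2 differences of all members as they were, and the limma adjusted p of Mettl21a was 0.883, 0.693 and 0.944.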
